A study of Mus musculus with 6 samples.

Results

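The genes described here encode the proteins that sense DNA damage, halt the cell cycle and repair the lesion. They were the 47 genes of a list of checkpoint, break sensing, end-joining, recombination, crosslink, excision and mismatch repair genes, chosen by name, and all 47 were among the 43346 genes of the deposited table. RNA was sequenced from the distal metaphysis, the trabecular, marrow-rich end of the femur shaft, of C57BL/6 mice aged 4 months. The right femur had received 24 Gy as 1 image-guided dose at 6.6 Gy per minute over 5 mm of that region, and the left femur of the same animals had received none. Both were taken on day 21, which gave 3 radiated and 3 non-radiated libraries, and the comparison concerns transcripts ahead of the bone loss seen on day 28. The control is thus bone from the other leg of an irradiated mouse, not from an unexposed animal.

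Ionizing radiation breaks both strands of DNA. The MRN complex and the Ku heterodimer find the ends, the kinases ATM and ATR signal to the checkpoint, and the breaks are closed by end joining at any phase or by recombination where a sister chromatid is present. In bone marrow the end-joining machinery has a second task, since developing B and T lymphocytes cut and rejoin their antigen receptor genes with it. Base lesions and single-strand breaks go to base excision repair, bulky adducts to nucleotide excision repair, and replication errors to mismatch repair.

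The libraries held 34034251 to 48708383 gene counts. In non-radiated library 2 the single row AY036118 took 32.9% of them, against 0.321% to 5.61% elsewhere. The 9 markers of osteoblasts and osteocytes summed to 8150 to 12400 CPM (the count relative to library size, after scaling by the trimmed mean of M-values) in the non-radiated and 6030 to 7810 CPM in the radiated libraries, and none of the 9 was at 0 in any library. Of these 9, 2 were called lower and 0 higher. The 10 skeletal muscle markers summed to 141 to 295 CPM in the non-radiated and 671, 2070 and 164 CPM in radiated libraries 1, 2 and 3. Of other cell types, the 8 neutrophil markers summed to 14500 to 18700 CPM in the non-radiated and 11600 to 13500 CPM in the radiated libraries, and 1 of the 8 was called lower. The 8 megakaryocyte markers fell from 1030 to 1090 CPM in sum to 345 to 412 CPM, and 8 of 8 were called lower. Of the stem and progenitor markers 5 of 7 were called lower, and 7 of 7 adipocyte markers were called higher. The 8 erythroid markers summed to 6800 to 7440 CPM in the non-radiated and 6360 to 7140 CPM in the radiated libraries. Of these 8, 0 were called. The part of these cell types in the values of the repair genes was not tested. Bulk RNA cannot tell apart fewer cells of a type and less RNA per cell.

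At day 21 most of the 47 repair genes stood close to their level in the opposite femur. Transcripts of Lig4, Xrcc6 and Parp1 rose, by 42.5%, 24.5% and 17.8%, and no gene of the list was called lower. Every one of the 47 passed the filter on low counts, and the smallest count of any of them in any library was 111, for Nhej1. The 3 called genes were 6.38% of the list, where edgeR's quasi-likelihood test (Benjamini-Hochberg adjusted p under 0.05) called 7.80% of the 18757 genes tested (4.56% higher and 3.24% lower). The share of the list was therefore near the background. An unadjusted p under 0.05 was reached by 7 genes of the list, all 7 higher, which is 14.9% against 21.5% of all genes (12.2% higher). With the library number as a block the same 3 genes were called, where 8.90% of all genes were. DESeq2 and limma-voom also called 3 higher and 0 lower, while 2 were called with a muscle covariate, 1 under library totals alone, and 0 without non-radiated library 1, without non-radiated library 2 or without radiated library 1.

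The median log2 fold change over the 47 genes was -0.05, beside 0.00 over all genes tested, and the single values ran from -0.22 for Xpa to 0.51 for Lig4. There were 18 positive and 29 negative values with this scaling. Scaling libraries by their totals alone moved the median of all genes to 0.195, and 46 of the 47 were then positive. With the row AY036118 left out of the totals that median was 0.034, and 22 were positive and 25 negative. A sign near 0 is thus relative to the bulk of genes. With the main scaling the intervals were narrow. The standard error of the log2 fold change was between 0.05 and 0.14, with a median of 0.0706 against 0.111 over all genes tested. For 45 of the 47 genes (95.7%), all but Lig4 and Ercc1, the 95% interval lay inside a 1.5-fold change in either direction. This held for 63.4% of all genes tested. That share also leaves out genes with a narrow interval around a larger change, and the genes tested include ones at lower counts than the list. Under library totals alone the standard errors were wider, between 0.207 and 0.272.

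**Figure D1:**
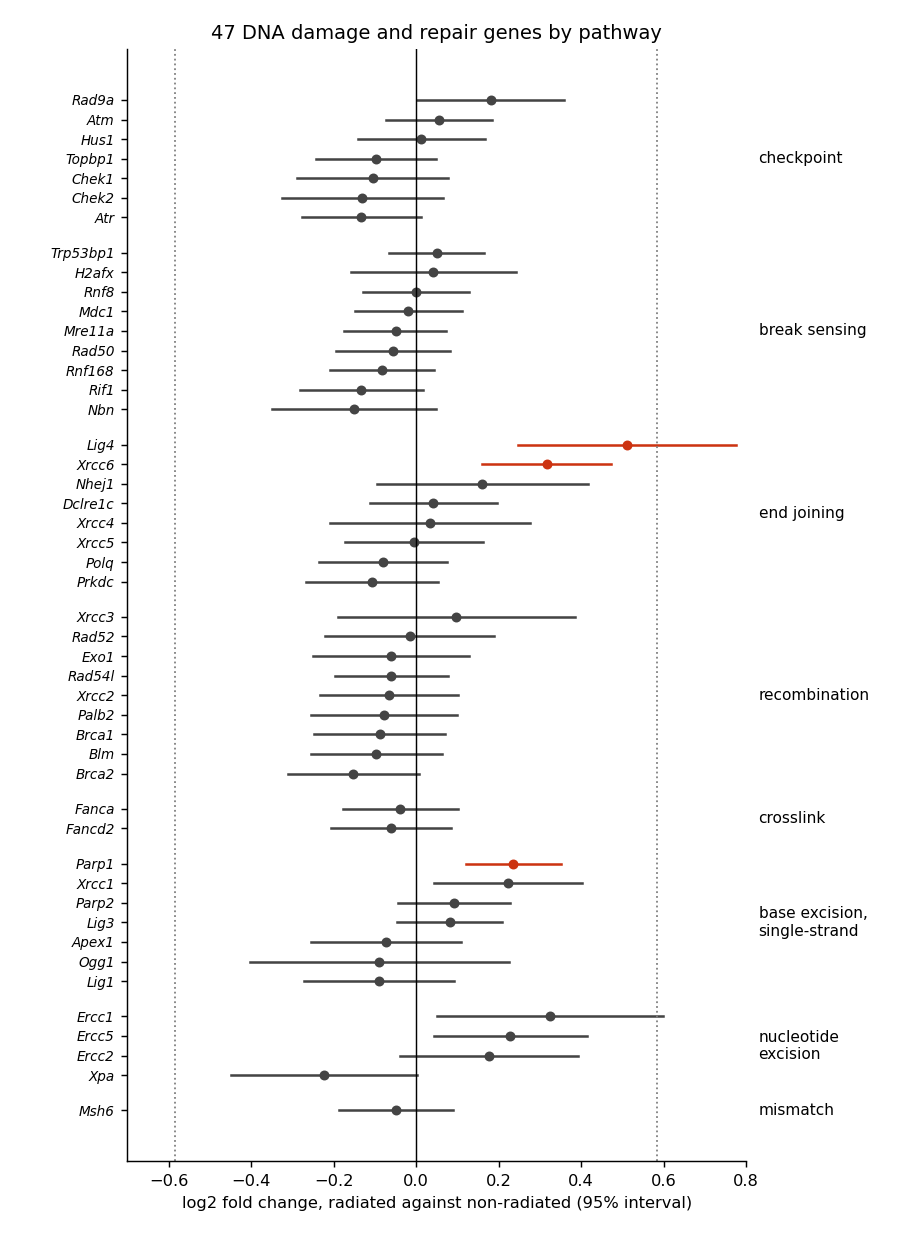
Log2 fold change of each of the 47 genes, radiated against non-radiated femur, with its 95% interval (horizontal axis), grouped by pathway. Red marks the 3 genes called by edgeR, and the dotted lines mark a 1.5-fold change, which the intervals of Lig4 and Ercc1 alone cross.

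Of the 47 genes, 9 were higher in every radiated library than in any non-radiated library, or 19.1% of the list against 14.4% of all genes tested. They were Lig4, Xrcc6, Nhej1, Parp1, Parp2, Xrcc1, Lig3, Ercc1 and Ercc5. Only Xpa was lower without overlap, where 11.5% of all genes were. In either direction 10 of the 47 were without overlap, where 25.9% of all genes tested were. By the pathway each gene was listed under, 3 of the 10 are among 8 end-joining genes, 4 among 7 base excision genes and 3 among 4 nucleotide excision genes.

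**Figure D2:**
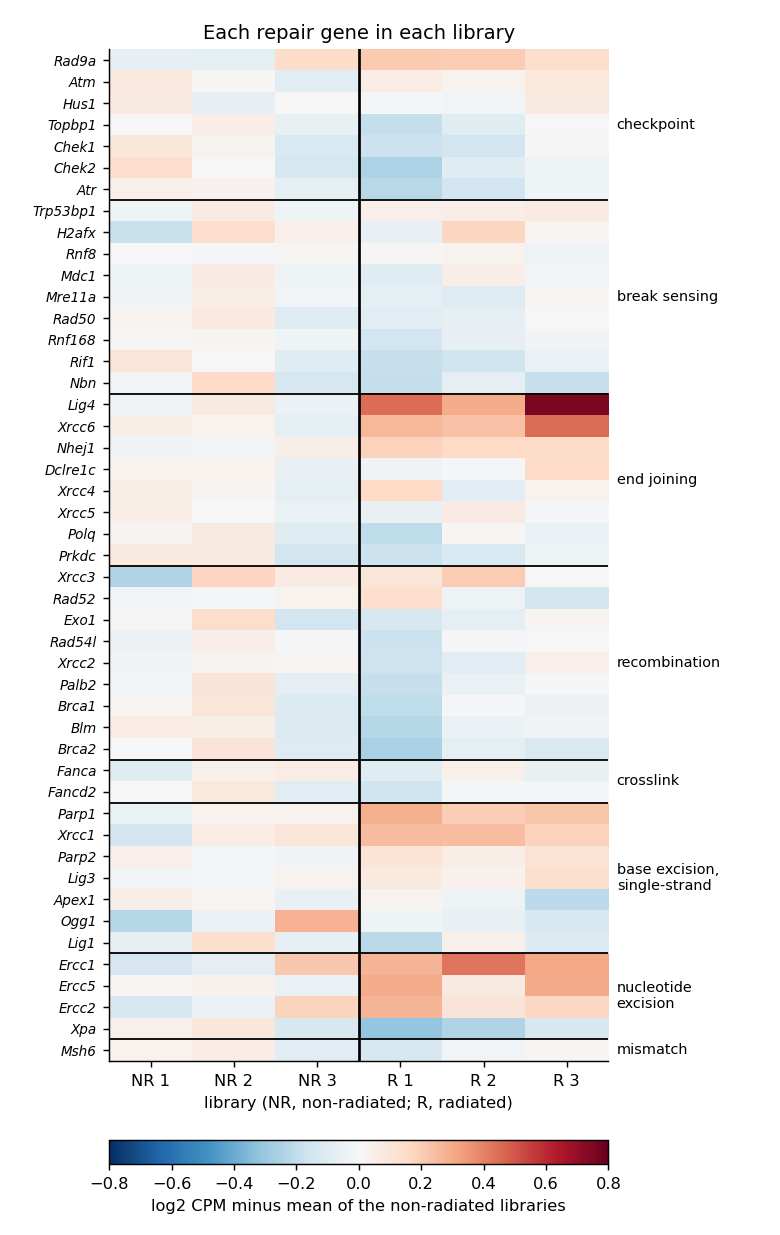
Log2 CPM of each gene in each library relative to the mean of the 3 non-radiated libraries (colour scale), with libraries in columns and genes in rows by pathway. Lig4, Xrcc6 and Parp1 are red in all 3 radiated columns, and many checkpoint and recombination genes are blue in radiated library 1.

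The sequences before the start sites of Lig4 and Parp1 are shown because these genes were called, and that of Brca2 because it holds a match to the motif of E2F, the factor that drives genes of DNA replication, and its own transcript peaks with replication. The windows of Xrcc6 and Topbp1 also hold a match but lie in annotated exons over a longer stretch and are not shown. At its end nearest the gene the Lig4 window holds 6 bases that GENCODE M21 places in an exon. They are the 250 bases upstream of the start listed first for the gene, 5′ to 3′ on the gene's strand, from RefSeq on GRCm38.p6. Lig4 is chr8:9977681-9977930 on the minus strand, Parp1 chr1:180568641-180568890 on the plus strand and Brca2 chr5:150522371-150522620 on the plus strand. Capitals mark an E2F-type match, the letters TTTCCCGC, TTTGCCGC, TTTCGCGC or TTTGGCGC on either strand.
Lig4: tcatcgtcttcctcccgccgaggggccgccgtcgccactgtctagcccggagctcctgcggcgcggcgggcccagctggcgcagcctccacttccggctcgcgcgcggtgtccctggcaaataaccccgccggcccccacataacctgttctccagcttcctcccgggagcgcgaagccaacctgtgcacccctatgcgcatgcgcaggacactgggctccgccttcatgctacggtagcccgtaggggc
Parp1: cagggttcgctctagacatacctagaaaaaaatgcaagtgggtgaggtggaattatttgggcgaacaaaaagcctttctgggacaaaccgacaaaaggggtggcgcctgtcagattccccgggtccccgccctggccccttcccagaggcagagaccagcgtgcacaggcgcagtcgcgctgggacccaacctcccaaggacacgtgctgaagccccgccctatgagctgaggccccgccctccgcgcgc
Brca2: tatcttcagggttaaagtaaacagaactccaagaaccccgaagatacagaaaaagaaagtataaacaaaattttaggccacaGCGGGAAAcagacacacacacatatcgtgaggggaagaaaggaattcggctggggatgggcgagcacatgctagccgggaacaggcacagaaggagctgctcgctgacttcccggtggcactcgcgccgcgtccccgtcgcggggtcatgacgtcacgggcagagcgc
Such windows were found for 38 of the 47 genes. An E2F-type match was present in 5 of the 38 (13.2%), namely Brca2, Chek2, Mdc1, Topbp1 and Xrcc6, and in 1.91% of 27025 genes with a window. The windows compared were not matched for base composition. The count includes Topbp1 and Xrcc6, whose windows lie in annotated exons over a longer stretch. Of the replication-linked genes 2 of 10 had one, and of the others 3 of 28. A second motif of cell cycle genes, called CHR and read here as TTTGAA or TTCGAA on either strand, was in 6 of the 38 (15.8%) and in 17.4% of all windows. A match is a string of letters and not a measured site. Of the 3 called genes only Xrcc6 had an E2F-type match, and none had a CHR match.

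The checkpoint genes had log2 fold changes from -0.13 to 0.18, and 0 of 7 were called. Atm, the kinase that responds to double-strand breaks, was at 89.3, 85.2 and 79.4 CPM in non-radiated libraries 1, 2 and 3 and at 87.9, 86.3 and 89.7 CPM in radiated libraries 1, 2 and 3. The groups overlapped, and the log2 fold change was 0.06 (SE 0.06, adjusted p of 0.640 by edgeR), with a 95% interval from -0.07 to 0.18. Atr, the kinase that responds to single-stranded DNA at stalled forks, was at -0.13, and its target kinase Chek1 at -0.11. Chek2, the kinase downstream of ATM, was at -0.13. The smallest p of the checkpoint genes belonged to Rad9a, which encodes a subunit of the ring-shaped 9-1-1 clamp. It was at 25.8, 25.6 and 29.9 CPM in the non-radiated and 31.3, 31.1 and 29.8 CPM in the radiated libraries. Non-radiated library 3 reached into the radiated range, and the log2 fold change of 0.18 (SE 0.08) had an unadjusted p of 0.0466 and an edgeR adjusted p of 0.223. Rad9a overlaps the more abundant Ppp1ca on the opposite strand, and whether counting used the strand is not given in the sources used here. Its clamp partner Hus1 was at 0.01, and Topbp1, the scaffold that activates ATR, at -0.10.

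No break sensing gene was called among 9, and their log2 fold changes lay between -0.15 and 0.05. The 3 subunits of the MRN complex, Rad50, Mre11a and Nbn, which binds broken ends and recruits ATM, were at -0.06, -0.05 and -0.15. H2afx encodes the histone variant H2AX, whose phosphorylated form marks chromatin around breaks. It was at 64.5, 80.3 and 75.3 CPM in the non-radiated and 70.2, 82.2 and 73.8 CPM in the radiated libraries. The 2 groups covered much the same range, with a log2 fold change of 0.04 (SE 0.09, adjusted p of 0.845 by edgeR). These are transcript levels, which carry no information on phosphorylation, and the sign of H2afx turned in 3 alternatives. Mdc1, the adaptor that reads phosphorylated H2AX, was at -0.02, and the ubiquitin ligases Rnf8 and Rnf168, which act after it, were at -0.0004 and -0.08. Trp53bp1 and Rif1 encode partners that shield ends from resection. Trp53bp1 was at 0.05. Rif1 had the smallest p of this set and was at 229, 215 and 200 CPM in the non-radiated and 189, 192 and 207 CPM in the radiated libraries. These overlapped, with a log2 fold change of -0.13 (SE 0.07, adjusted p of 0.288 by edgeR).

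Of the genes listed under end joining, 2 of 8 were called, Xrcc6 and Lig4. Xrcc6 encodes Ku70, one of the 2 subunits of the Ku ring that slides onto a broken end. It was at 74.2, 73.2 and 67.8 CPM in the non-radiated and 86.0, 84.3 and 97.7 CPM in the radiated libraries. All 3 radiated values were above all 3 non-radiated values, with the highest in radiated library 3, and the log2 fold change was 0.32 (SE 0.07, adjusted p of 0.0247 by edgeR). In the table Xrcc6 (ENSMUSG00000022471, chromosome 15, 81987835 to 82040085) overlaps Desi1 on the opposite strand, which was at 50.4 CPM with a log2 fold change of 0.24 (adjusted p of 0.0734 by edgeR). The counts of Xrcc6 are uncertain to that extent. Its call held in 1 of the 6 fits that left out 1 library, the one without radiated library 2.

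Lig4 encodes DNA ligase IV, which seals the break. It was at 14.1, 15.1 and 13.9 CPM in the non-radiated and 19.6, 17.6 and 24.2 CPM in the radiated libraries. The non-radiated libraries were within about 1 CPM of each other, while the radiated ones spread more widely and again peaked in library 3. The log2 fold change was 0.51 (SE 0.12, adjusted p of 0.0301 by edgeR), and it was 0.37 without radiated library 3. Its call too held in 1 of those 6 fits, the one without radiated library 2. No gene of the table overlaps Lig4 (ENSMUSG00000049717, chromosome 8, 9970020 to 9977686).

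The other 6 end-joining genes were not called. Xrcc5, which encodes Ku80, the partner of Ku70, was at 18.8, 18.1 and 17.5 CPM in the non-radiated and 17.4, 19.0 and 17.9 CPM in the radiated libraries, a log2 fold change of -0.0048 (SE 0.07). Xrcc4, which encodes the partner that stabilizes ligase IV, was at 0.03, and Nhej1, which encodes the filament factor XLF, at 0.16 with no overlap between groups (adjusted p of 0.475 by edgeR). Dclre1c, which encodes the hairpin-opening nuclease Artemis, was at 0.04, and Prkdc, which encodes the kinase that holds Artemis at the end, at -0.11. Polq, the polymerase of the alternative, microhomology-using route, was at -0.08. Of the Ku pair and of the ligase IV pair, 1 gene each was called. The ratio of Xrcc6 to Xrcc5, each per length, was 2.25, 2.31 and 2.21 in the non-radiated and 2.83, 2.54 and 3.11 in the radiated libraries. For Lig4 over Xrcc4 it was 1.63, 1.77 and 1.74 against 2.10, 2.23 and 2.84. Neither ratio overlapped between groups, and a ratio within a library does not depend on how libraries are scaled. They were 2 of 6 such ratios, chosen after the values were seen, and 4 of the 6 did not overlap between groups. With 3 against 3 an exact two-sided permutation test cannot go below 0.1, so the ratios are a description.

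Other genes of the end-joining pathway, from a list of 107 further repair genes, included 4 called higher of 9 (44.4%) and none lower, where 4.56% of all genes tested were called higher. All 4 act in the joining of antigen receptor gene segments. Rag1 and Rag2 encode the recombinase that cuts the segments. Rag1 was at 100, 75.7 and 85.6 CPM in the non-radiated and 140, 119 and 185 CPM in the radiated libraries, with a log2 fold change of 0.76 (adjusted p of 0.0171 by edgeR), and Rag2 rose by 0.97 on that scale (adjusted p of 0.00801 by edgeR). Dntt, which encodes the terminal transferase that adds bases at the joint, was at 30.9, 26.2 and 24.4 CPM in the non-radiated and 41.5, 41.0 and 41.0 CPM in the radiated libraries (log2 fold change 0.60, adjusted p of 0.00381 by edgeR). Polm, which encodes the related polymerase mu, rose by 0.62 (adjusted p of 0.00552 by edgeR). None of the 4 had overlapping groups. Rag1 and Rag2 share their position in part with B230118H07Rik, which was at 11.8 CPM. Rag1 lost its call without non-radiated library 2 (adjusted p 0.0773) or 3 (0.0596), and the other three kept theirs in all 15 alternatives.

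B cell markers moved with these genes. All 10 markers on the B cell list, which holds Rag1 and Rag2, were called higher and none was at 0 in any library, and their sum was 590, 522 and 564 CPM in the non-radiated and 968, 856 and 1080 CPM in the radiated libraries. The radiated library with the highest sum was library 3 and the one with the lowest was library 2, which was also so for Xrcc6 and Lig4. Parp1 and Dntt were highest in radiated library 1. The 6 T cell markers summed to 31.3 to 32.3 CPM in the non-radiated and 42.5 to 47.3 CPM in the radiated libraries, and 2 of the 6 were called higher. The part of either lineage in the end-joining result was not tested.

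**Figure D3:**
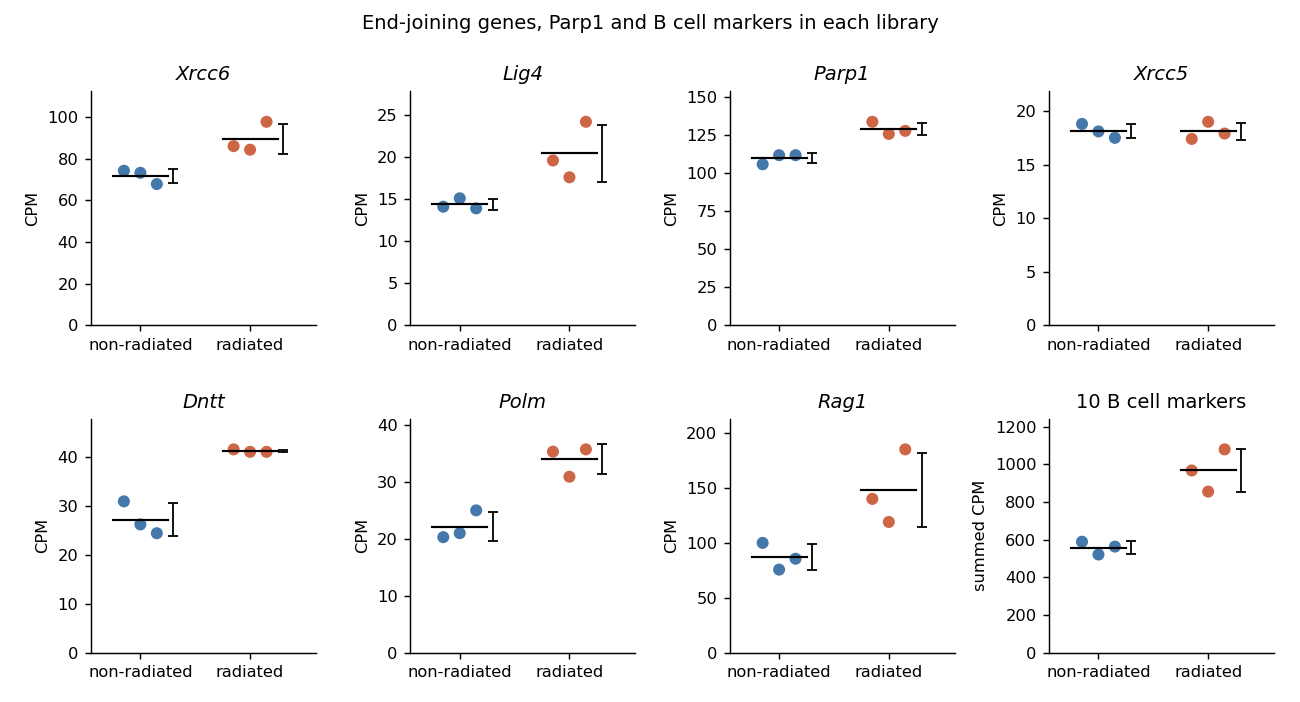
CPM (vertical axes) of Xrcc6, Lig4, Parp1, Xrcc5, Dntt, Polm and Rag1 and the summed CPM of 10 B cell markers in each library. Points are libraries 1, 2 and 3 of each group from left to right, the lines are group means and the bars are SD (n = 3). The groups are apart in each panel except that of Xrcc5.

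The recombination genes, which need a sister chromatid and so act after replication, were not called, 0 of 9. Their values ran from -0.15 to 0.10, 8 of 9 negative here and all 9 positive under library totals alone. When AY036118 was left out of the totals, Rad52 alone of these changed sign. Brca2, which encodes a core factor of recombination at breaks and stalled forks, had the smallest p. It was at 146, 157 and 136 CPM in the non-radiated and 122, 139 and 134 CPM in the radiated libraries. Radiated library 2 lay above non-radiated library 3, and the log2 fold change was -0.15 (SE 0.07, adjusted p of 0.251 by edgeR), with a 95% interval from -0.31 to 0.01. Within the pairs of equal number the radiated library was lower by all 3 differences, -0.256, -0.178 and -0.024 on the log2 scale for pairs 1, 2 and 3, and with the replicate block the adjusted p was 0.223 by edgeR. Brca1, the partner that promotes resection, was at -0.09, and Palb2, which bridges both, at -0.08. The annealing factor Rad52, the translocase Rad54l and the recombination genes Xrcc2 and Xrcc3 were at -0.02, -0.06, -0.07 and 0.10. The helicase gene Blm and the nuclease gene Exo1 were at -0.10 and -0.06. Fancd2 and Fanca, of the Fanconi pathway that unhooks crosslinks, were at -0.06 and -0.04, and Fancd2, with 87.1, 92.1 and 81.7 CPM against 77.7, 86.0 and 86.0 CPM, overlapped between groups (adjusted p of 0.654 by edgeR). Msh6, the mismatch recognition gene, was at 118, 121 and 109 CPM in the non-radiated and 106, 114 and 117 CPM in the radiated libraries (log2 fold change -0.05, SE 0.06, adjusted p of 0.716 by edgeR). Of 24 other recombination genes, 12 other crosslink genes and 6 other mismatch genes, 0 were called. An unadjusted p under 0.05 was reached by 1 of the 24, which was higher, by 2 of the 12, both lower, and by 0 of the 6.

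The replication-linked genes varied between libraries of 1 group as well as between groups. Genes whose transcripts peak in S or G2 phase made up 14 of the 47, namely Brca1, Brca2, Chek1, Exo1, Blm, Rad54l, Fancd2, Fanca, Lig1, Polq, Xrcc2, Msh6, Topbp1 and H2afx. Their median log2 fold change was -0.07, with 13 of 14 negative here and all 14 positive under library totals alone, and that of the other 33 was 0.01. With AY036118 left out of the totals the median of the 14 was -0.041. Radiated library 1 was the lowest of the 6 libraries for 12 of the 14, for 10 of the other 33 and for 2998 of the 18757 genes tested. As a median over the 14, relative to the non-radiated mean, the libraries stood at 0.00, 0.07 and -0.09 for non-radiated 1, 2 and 3 and at -0.17, -0.02 and -0.01 for radiated 1, 2 and 3. Non-radiated library 3 was thus lower than radiated libraries 2 and 3. Within pairs 1, 2 and 3 the medians of the 14 differed by -0.175, -0.086 and 0.079. The median of the 14 was -0.03 when radiated library 1 was left out and -0.13 when non-radiated library 3 was.

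A set of 15 markers of cycling cells, none of them on the list, followed the 14 in part. Their medians were 0.00, 0.09 and -0.09 in the non-radiated and -0.18, 0.01 and -0.10 in the radiated libraries, with differences within pairs of -0.176, -0.082 and -0.0064. Their summed level was 5810 to 6890 CPM in the non-radiated and 5570 to 6230 CPM in the radiated libraries. Of the 15, 0 had a positive log2 fold change with the main scaling, with a median of -0.0936, and 0 were called. None was at 0 in any library. The part of cycling cells in the values of the 14 genes was not tested.

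**Figure D4:**
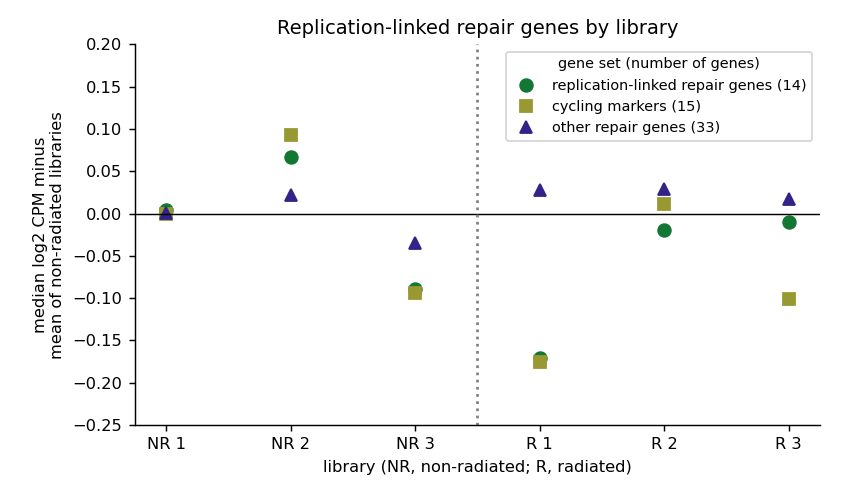
Median log2 CPM relative to the mean of the non-radiated libraries (vertical axis) in each library (horizontal axis) for the 14 replication-linked repair genes (circles), 15 markers of cycling cells (squares) and the other 33 repair genes (triangles). Circles and squares are lowest in radiated library 1, at -0.17 and -0.18, and the triangles stay between -0.03 and 0.03.

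Base excision and single-strand break repair held the third called gene, 1 of 7 (14.3%), where 7.80% of all genes tested were called. Parp1 encodes the poly(ADP-ribose) polymerase that binds nicks and recruits the repair scaffold. It was at 106, 112 and 112 CPM in the non-radiated and 134, 126 and 128 CPM in the radiated libraries. The lowest radiated value was above the highest non-radiated value, and the log2 fold change was 0.24 (SE 0.05, adjusted p of 0.0239 by edgeR). Parp1 (ENSMUSG00000026496) lies on chromosome 1 from 180568924 to 180601254 and overlaps Mir6904, which was at 1.59 CPM. Its call held in 2 of the 6 fits that left out 1 library, those without non-radiated library 3 or radiated library 3. Xrcc1, which encodes that scaffold, was at 27.0, 31.3 and 32.1 CPM in the non-radiated and 35.8, 35.6 and 34.1 CPM in the radiated libraries. Its groups did not overlap, and with a log2 fold change of 0.22 (SE 0.08, adjusted p of 0.135 by edgeR) it was not called. Parp2, the related polymerase, and Lig3, the ligase bound to XRCC1, were at 0.09 and 0.08, both without overlap and both not called. The glycosylase gene Ogg1, the endonuclease gene Apex1 and the replicative ligase gene Lig1 were at -0.09, -0.07 and -0.09. Among 14 other genes of this pathway 2 (14.3%) were called, both higher, where 4.56% of all genes tested were called higher. Neil1, which encodes a glycosylase, was at 11.8, 13.0 and 13.3 CPM in the non-radiated and 18.9, 18.5 and 21.4 CPM in the radiated libraries (log2 fold change 0.62, adjusted p of 0.00339 by edgeR), and was called in all 15 alternatives. The other was Parp3 (log2 fold change 0.39, adjusted p of 0.0313 by edgeR), named here after its values were seen, which was called in 9 of 15 alternatives and in 2 of the 6 fits that left out 1 library (adjusted p by edgeR up to 0.184 over the alternatives).

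In nucleotide excision repair 0 of 4 genes were called. Ercc1, which encodes the partner of the XPF nuclease, was at 6.83, 7.11 and 8.73 CPM in the non-radiated and 9.06, 10.1 and 9.30 CPM in the radiated libraries, without overlap. Its log2 fold change of 0.32 (SE 0.12, adjusted p of 0.155 by edgeR) was as large as that of Xrcc6, with a wider error at a lower level. Ercc5, which encodes the XPG nuclease, had the smallest p of the 4. It was at 21.3, 21.5 and 20.3 CPM in the non-radiated and 25.8, 22.1 and 25.9 CPM in the radiated libraries, with radiated library 2 only just above the non-radiated ones (0.23, SE 0.08, adjusted p of 0.139 by edgeR). Ercc2, which encodes the XPD helicase, was at 0.18. Xpa, which encodes the factor that verifies the lesion, went the other way at 11.7, 12.1 and 10.4 CPM against 9.19, 9.64 and 10.4 CPM. Its log2 fold change was -0.22 (SE 0.10, adjusted p of 0.236 by edgeR), and non-radiated library 3 and radiated library 3 were almost equal. Xpa overlaps the more abundant Ncbp1 on the opposite strand. Of 13 other genes of this pathway 0 were called, and 0 had an unadjusted p under 0.05.

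Over all 107 further repair genes, 8 were called higher (7.48%) and 0 lower. Of all genes tested 4.56% were called higher and 3.24% lower, or 7.80% in both directions. Their median log2 fold change was -0.025, and an unadjusted p under 0.05 was reached by 11 higher and 5 lower genes. Beyond the end-joining and base excision genes, the called ones were Rnf169, a ubiquitin reader at breaks (log2 fold change 0.24, adjusted p of 0.0177 by edgeR), and Polk, a lesion bypass polymerase (0.32, adjusted p of 0.0385 by edgeR). Both calls held in 2 of the 6 fits that left out 1 library, those without non-radiated library 3 or radiated library 2. Over 15 alternatives Rnf169 was called in 10 and Polk in 9, with adjusted p values up to 0.311 and 0.243. Polk was also the 1 called gene of 9 repair genes that are described as p53 targets, which had a median of -0.03. In that set Ddb2, Xpc, Rrm2b, Pcna and Gadd45a, picked for mention after their values were seen, were not called and were at 0.08, -0.12, 0.26, -0.16 and -0.06.

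Transcript levels of the 47 genes, compared per length as CPM per kilobase in the non-radiated libraries, covered a wide range. H2afx (46.6 to 58.0 over the 3 libraries) and Lig1 (46.7 to 53.4) were highest and overlapped, followed by Msh6 (25.6 to 28.5) and Topbp1 (24.2 to 26.1), which overlapped with each other. At the other end were Xrcc4 (1.88 to 2.04) and Ercc1 (2.20 to 2.81), whose ranges were apart. By the mean, Parp1 ranked 6 of 47 at 20.8 CPM per kilobase, Xrcc6 ranked 13 (15.2 to 16.6) and Lig4 ranked 44 (3.27 to 3.55). The 3 called genes thus came from different parts of the range of levels.

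The 3 calls depended on which libraries were in the fit. Over the 6 fits that each left out 1 library the log2 fold changes stayed between 0.37 and 0.61 for Lig4, 0.25 and 0.36 for Xrcc6 and 0.21 and 0.25 for Parp1. With a term for the muscle markers the adjusted p of Parp1 was 0.0892, and under library totals alone those of Xrcc6 and Parp1 were 0.170 and 0.317.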

How the data were processed

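Gene counts of 6 libraries were analysed. The authors deposited, per the file headers, a raw count and an RPKM value for each gene and library. The submitters' processing notes name bcl2fastq, STAR 2.5.2b, Subread, featureCounts and build mm10, and per the labels' protocols a stranded mRNA kit was used. Strand setting and annotation are not given in the sources used here. The deposited RPKM values were not used, since their library constant (5.55 to 6.91 times the gene count sum) is not explained.

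The main test of the counts was edgeR 4.0.16 (R 4.3.3) on the 18757 genes that filterByExpr kept (minimum count 10, minimum total 15), with TMM scaling and glmQLFit with the group as the only term. Intervals are the log2 fold change ± SE times the t quantile for 9.18 degrees of freedom. The labels name no animal per library, so p-values measure the spread between these libraries. Replicate pairs differed by more than sampling noise (chi-square per degree of freedom 17.8 to 631). Libraries with the same number deviated together, with correlations across genes of 0.166, 0.277 and 0.187 for numbers 1, 2 and 3. For different numbers the correlations were -0.17 to -0.00824. These correlations are not independent of each other, since deviations within a group balance out. Pairing by number was used only in the replicate block and in the differences within pairs. The main test treated the libraries as unpaired, and so did its standard errors and intervals. Alternatives were a replicate block, DESeq2 1.42.0, limma-voom (limma 3.58.1), other scalings and filters, a muscle covariate and each library left out. Counts were also simulated with the same spread for every gene and no pairing, unlike the libraries here (18547 genes tested). On them the test found 98% of 100 genes with a 2-fold change and called 12 of 18347 genes with none. No smaller change was simulated. The simulation therefore does not show how the test performs on changes as small as those of the 3 called genes.

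The genes and lists were chosen with earlier results of these data known. Of the 107 further repair genes 4 were matched through their gene ID. Described in full were called genes and the gene with the smallest p in each pathway, and up to 6 called genes of each further list were named. Atm, H2afx, Xrcc5, Xrcc1, Ercc1 and Xpa were described with their values after these were seen. Of the 47 genes 25 overlap another gene of the table, 17 of them one of at least 1 CPM, and counts are uncertain there where strand was not used. Coordinates of genes are those of the table and strands are from GENCODE M21.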

Additional observations from a re-analysis of the deposited data

How the results depend on the processing

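Over 15 alternatives to the fit and 47 genes, 636 of 705 values kept their sign and their side of the threshold, 17 kept their sign and lost the call (Xrcc6, Lig4 and Parp1), and 52 changed sign, all 52 in genes that were not called. No gene of the list was called lower in any of them. The replicate block changed no call of the 47 genes (adjusted p by edgeR 0.0303 for Lig4, 0.0401 for Xrcc6 and 0.0496 for Parp1, with log2 fold changes of 0.50, 0.31 and 0.24). Library totals alone moved the median of all genes to 0.195, that of the 47 genes to 0.15 and that of the replication-linked genes to 0.124. They called 1 gene of the list, 5 further repair genes and 146 genes lower among all genes, with 854 higher. With AY036118 left out of the totals, the medians of all genes, of the 47 and of the replication-linked genes were 0.034, -0.016 and -0.041. With no filter on low counts 1294 of all genes were called higher. Leaving out each library in turn gave 0 to 2 called genes of the list, 4 to 8 further repair genes and 764 to 1376 of all genes, 433 to 917 higher and 328 to 602 lower. The count over all genes was lowest without radiated library 1, and it was also lower by over 1.5 times without non-radiated library 1 or 2. The median of the 47 genes then lay between -0.053 and -0.015 and that of the replication-linked genes between -0.128 and -0.026.

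With library totals alone the sign turned for 28 genes, each of which stayed under the shift of all genes: Atr (0.061), Chek1 (0.087), Chek2 (0.059), Topbp1 (0.10), Rad50 (0.14), Mre11a (0.15), Nbn (0.057), Mdc1 (0.18), Rnf8 (0.19), Rnf168 (0.11), Rif1 (0.058), Xrcc5 (0.19), Prkdc (0.091), Polq (0.12), Brca1 (0.11), Brca2 (0.052), Palb2 (0.13), Rad52 (0.17), Rad54l (0.14), Xrcc2 (0.13), Blm (0.10), Exo1 (0.15), Fancd2 (0.14), Fanca (0.16), Lig1 (0.12), Ogg1 (0.10), Apex1 (0.12) and Msh6 (0.15). With totals without AY036118 it turned for Mdc1 (0.013), Rnf8 (0.031), Xrcc5 (0.027) and Rad52 (0.016). With the muscle covariate it turned for H2afx (-0.043) and Xrcc3 (-0.016), and for Rnf8 with no filter (0.0005) and with a mean of at least 1 CPM (0.0034). In the fits that left out 1 library the log2 fold change crossed 0 for Hus1 (-0.033 to 0.049), H2afx (-0.046 to 0.096), Mdc1 (-0.058 to 0.017), Rnf8 (-0.019 to 0.0204), Xrcc5 (-0.041 to 0.023), Dclre1c (-0.021 to 0.074), Xrcc4 (-0.033 to 0.093), Rad52 (-0.095 to 0.045), Xrcc3 (-0.016 to 0.17) and Ogg1 (-0.20 to 0.061). The cause of these sign changes was not tested. The lowest count behind any of these values was 111, for Nhej1.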
